A study of Drosophila melanogaster with 2 samples.

Results

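The genes described here are 8 that encode proteins of heterochromatin in Drosophila melanogaster, taken by name from the 18164 annotated genes of the chromosome arms X, 2L, 2R, 3L, 3R and 4. They are the gene of HP1a (FlyBase gene FBgn0003607, also written Su(var)2-05), HP1b, HP1c, HP4, HP5, Su(var)3-9, Su(var)3-7 and egg. Chromatin immunoprecipitation followed by sequencing (ChIP-seq) with an antibody to GFP had been used on whole pupae, labelled 24 hours and of both sexes pooled, from a stable transgenic line that makes CG1663 with GFP at its C terminus. There was 1 group of 2 biological replicates, numbered 1 and 3, so no second genotype, time or tissue was compared, and both replicates carried the fusion in a single line. Because whole animals were used, a site occupied in few cells cannot be told apart from one occupied weakly in many.

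Heterochromatin is the compact part of the genome around centromeres, at telomeres and over most of chromosome 4. Its core works as a writer and a reader: histone methyltransferases such as Su(var)3-9 and Eggless, the product of egg, methylate lysine 9 of histone H3, and the chromodomain of HP1a binds that mark. HP1b and HP1c are paralogues of HP1a, and HP1c is found mainly in euchromatin. Su(var)3-7, HP4 and HP5 are partners of HP1a, and Su(var)3-7 is a zinc finger protein. Some of these genes were found because their mutations relieve the silencing of genes placed next to heterochromatin in flies.

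For every gene, the summits (points of highest signal) of peaks inside the gene or within 2 kb of it were collected from 4 deposited lists, those of replicate 1, of replicate 3, of both pooled, and one cut at a threshold of the irreproducible discovery rate (IDR), which weighs how similarly replicates order their peaks. The first 3 hold 30000 peaks each and the IDR list holds 9657, which were the pooled peaks with the highest signal. Signal is the peak caller's own value relative to a control, comparable within a list only, and peaks were therefore ranked in each list with 1 as the highest. A single control served for both replicates, and no untagged line was analysed here. Distances are from the nearest annotated start of the gene, with a minus sign for upstream, and positions are on build dm6 counted from 1. With 2 replicates and 1 group no test of a difference can be made, so members are described by counts set beside the same counts over all genes.

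CG1663-GFP was placed at the promoters of 4 of the 8 genes. HP1a, HP1b, HP4 and Su(var)3-7 each had 1 IDR summit within 500 bp of a start, at 97, 76, 113 and 160 bp upstream, against 18.8% of all genes and 21.5% of protein-coding genes with such a summit. HP5 had an IDR summit 1711 bp upstream and none nearer, which brought the genes with an IDR summit inside the gene or within 2 kb to 5 of 8, against 38.3% of all genes. HP1c, Su(var)3-9 and egg had none in that range. Without replicate 3, in the 9657 strongest peaks of replicate 1, the count at starts was 2 of 8, against 16.5% of all genes. These were HP1b, at rank 6908, and HP1a, at rank 9641 and so just inside the cut. The count within 2 kb was 3 of 8, close to the 36.0% of all genes. The genes ran from 717 bp for HP4 to 5675 bp for Su(var)3-7, with a median of 2639.5 bp against 2166 bp for protein-coding genes.

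The start regions of 5 of these genes show where the summits fell, and are given 5′ to 3′ on the strand of the member from Release 6 of the genome in RefSeq, which shares its coordinates with dm6. Capitals mark the letters CGATA on either strand, a core of the BEAF-32 insulator site, and 8 capitals reading TATCGATA mark the DNA replication-related element (DRE). The first 3 held an IDR summit, at base 128, base 139 and base 71 of the stretch printed, and the last 2 held none. The sequences between paired starts are complete for HP1a with Ssb-c31a (chr2L:8211123-8211346, minus strand), HP4 with CG8209 (chr3L:7976155-7976405, minus strand), Su(var)3-9 with Set (chr3R:15263459-15263551, minus strand) and HP1c with vret (chr3R:22745582-22745619, plus strand), and for Su(var)3-7 the IDR peak is shown (chr3R:13264134-13264297, plus strand).
HP1a: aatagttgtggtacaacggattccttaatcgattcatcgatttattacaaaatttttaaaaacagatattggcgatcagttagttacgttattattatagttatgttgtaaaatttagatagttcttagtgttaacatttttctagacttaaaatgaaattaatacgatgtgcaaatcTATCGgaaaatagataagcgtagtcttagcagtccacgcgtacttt
HP4: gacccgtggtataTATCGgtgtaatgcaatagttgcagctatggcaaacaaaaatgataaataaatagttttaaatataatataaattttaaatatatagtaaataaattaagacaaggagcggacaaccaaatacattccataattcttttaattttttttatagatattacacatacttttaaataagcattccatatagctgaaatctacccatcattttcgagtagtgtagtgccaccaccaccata
Su(var)3-7: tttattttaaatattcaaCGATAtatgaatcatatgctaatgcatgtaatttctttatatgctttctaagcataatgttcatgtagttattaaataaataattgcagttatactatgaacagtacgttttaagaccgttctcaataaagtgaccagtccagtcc
Su(var)3-9: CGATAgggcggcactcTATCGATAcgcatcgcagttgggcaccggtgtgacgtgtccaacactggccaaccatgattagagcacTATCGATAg
HP1c: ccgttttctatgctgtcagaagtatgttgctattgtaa

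The 3 stretches with a summit had 29.0%, 28.3% and 27.4% GC, the last being a peak and not a whole interval between starts. The whole interval between Su(var)3-7 and Ravus had 34.1% GC, and that between HP5 and Evi5, which held no IDR summit, had 33.1%. The stretch at Su(var)3-9 had 54.8% GC and held TATCGATA at 2 places, and the short one at HP1c had 36.8% GC and no CGATA. No UTR base lies in any of the 5.

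**Figure D1:**
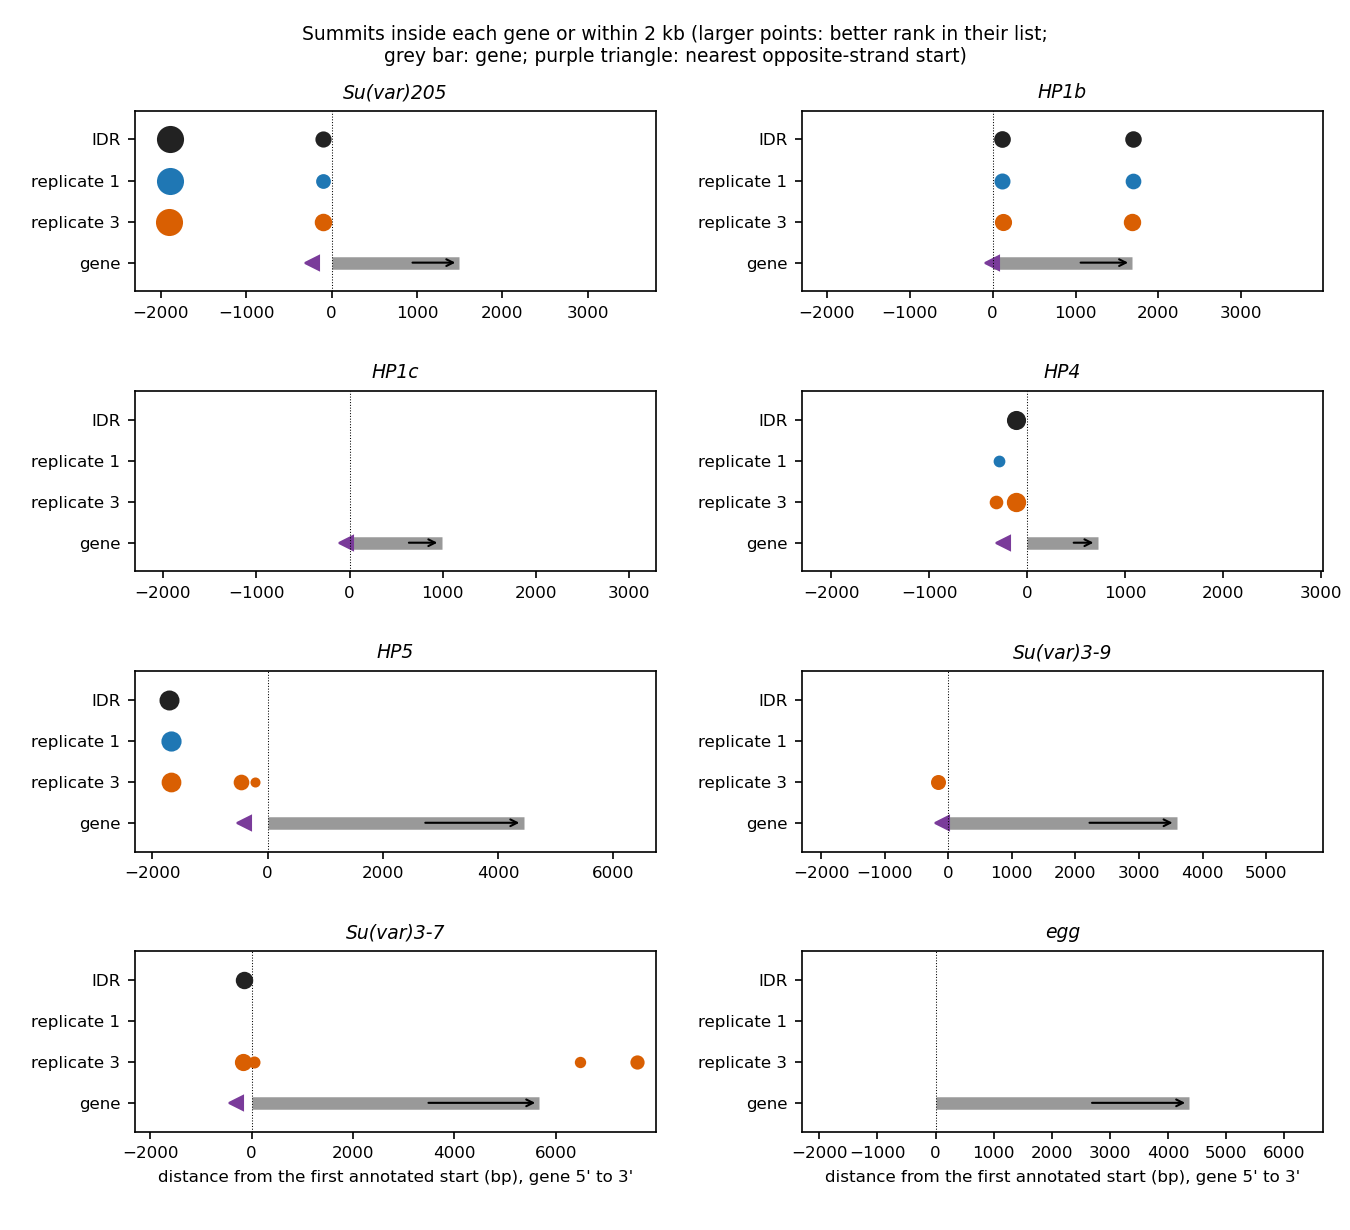
Summits of the IDR, replicate 1 and replicate 3 lists inside each of the 8 genes or within 2 kb, by distance in bp from the gene's first annotated start, with larger points for better ranks, a grey bar for the gene and a purple triangle for the nearest start on the opposite strand. The panel with the FlyBase symbol of the HP1a gene comes first. Its IDR summit nearest the start and those of HP4 and Su(var)3-7 lie between paired starts, while the panels of HP1c and egg are empty. Replicate 3 holds 14 summits against 6 in replicate 1. The 14 include overlapping neighbouring peaks at HP4, HP5 and Su(var)3-7, which are counted separately.

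Among the HP1 genes, HP1a had the weaker of its 2 IDR summits at its own start. This peak on chromosome 2L (8211007 to 8211430, summit in the intergenic stretch shown above) had a signal of 273.3 and rank 6564 in the IDR list. Replicate 1 placed its summit 105 bp upstream with a signal of 97.9 and rank 9641, and replicate 3 placed it 97 bp upstream with 177.6 and rank 4456. It was equally in reach of the start of Ssb-c31a (225 bp from that of HP1a), the gene of a single-stranded DNA-binding protein, and cannot be given to either gene alone.

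The second IDR summit near HP1a was one of the strongest of the whole list. It lay 1896 bp upstream on 2L (8212801 to 8213227), just inside the 2 kb limit, with a signal of 4022.5 and rank 92, so 0.942% of IDR peaks were stronger. Replicate 1 gave it rank 94 and a signal of 2355, and replicate 3 the same rank and a signal of 1686. Its summit lay in the 5' UTR of CG8360 and within 500 bp of the starts of both CG8360 and CG8372, with Ssb-c31a between them and HP1a. The next IDR summit outside the limit was 4323 bp from HP1a, with a signal of 2450 and rank 355.

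HP1b carried 2 summits of like strength at its opposite ends. The first (X, 9081096 to 9081301) lay in the 5' UTR of a longer transcript, 76 bp upstream of the second of its 2 annotated starts, with a signal of 322.8 and rank 5679. Its signal was 150.9 in replicate 1 (rank 6908) and 161.7 in replicate 3 (rank 4972). The start of CG7246 is 6 bp from the first start of HP1b on the opposite strand. The second IDR summit (X, 9082538 to 9082961, signal 306.6, rank 5951) lay 1496 bp downstream, just past the gene's end, and within 500 bp of the start of APC4, a subunit of the anaphase-promoting complex. It ranked 7527 in replicate 1 and 4615 in replicate 3.

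No list held a summit in range of HP1c (3R, 22745620 to 22746605). The nearest one in the IDR list was 5091 bp from its start, with a signal of 866.4 and rank 2022, and it was present in replicate 1 at rank 1974 and in replicate 3 at rank 2240. The start of vret, a Tudor domain gene of the piRNA pathway, is 39 bp from that of HP1c on the opposite strand. Of the 3 HP1 paralogues here, 2 thus had a promoter summit and the third had none.

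Among the partners of HP1a, HP4 had the promoter summit with the highest signal of the 8 genes and, of the 6 member summits matched in both replicates, the one with the largest difference in rank. The IDR peak (3L, 7976078 to 7976459) had a signal of 691.3 and rank 2652. In replicate 3 the summit lay 2 bp from that place, with a signal of 303.4 and rank 2461. The peak of replicate 1 that overlapped it had its summit 290 bp upstream, inside the 5' UTR of CG8209, with a signal of 36.0 and rank 18791, and replicate 3 had a second weak summit close to that place, 321 bp upstream with a signal of 59.3 and rank 12658. When a replicate summit had to lie within 100 bp of the IDR summit, replicate 1 had no match at HP4.

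At Su(var)3-7 the replicates differed in the same direction. Its IDR peak (3R, 13264134 to 13264297, between its start and that of Ravus) had a signal of 405.3 and rank 4573 and was narrow, with 164 bp against a median of 358 bp. Replicate 3 held the summit 165 bp upstream with a signal of 164.9 and rank 4855, and a weaker one 41 bp downstream with 36.9 and rank 17837. Replicate 1 had no peak there at all, and its nearest summit was 3822 bp from the start. Of all IDR peaks 3.18% had no overlapping peak in replicate 1, and of those within 500 bp of starts on both strands 13.5% had none. Past its 3' end replicate 3 alone had 2 further summits, with a signal of 30.3 (rank 20244) in a coding exon of TBC1D5 and of 71.7 (rank 10949) within 500 bp of the start of that gene.

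HP5 had a strong site away from starts and only weak ones at its promoter. The IDR peak (X, 11452885 to 11453289, in an intron of Evi5) had a signal of 894.2 and rank 1940, and the replicates ranked it nearly alike, with 561.7 (rank 1821) in replicate 1 and 341.0 (rank 2123) in replicate 3. No start of any gene was within 500 bp of its summit. Nearer to HP5, replicate 3 alone had summits 455 bp upstream, with a signal of 108.2 and rank 7592, and 214 bp upstream, with 20.4 and rank 25385, the former in the 5' UTR of Evi5.

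The 2 methyltransferase genes had no IDR summit in range. Su(var)3-9 shares its start with eIF2gamma, the gene of a translation initiation factor, and lies 94 bp from the start of Set, which encodes a histone chaperone. Replicate 3 alone placed a summit in this region, 154 bp upstream of Su(var)3-9 and in the 5' UTR of Set (3R, 15263397 to 15263826), with a signal of 89.3 and rank 9053, and neither replicate 1 nor the pooled list had one. The nearest IDR summit was 11936 bp away, with a signal of 3505 and rank 140.

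No list held a summit inside egg (2R, 24775534 to 24779901) or within 2 kb of it. The nearest IDR summit was 11728 bp from its start, with a signal of 359.1 and rank 5171, and the nearest replicate 3 summit was 3767 bp away with a signal of 49.2 and rank 14635. egg was also the only one of the 8 genes with no start of another gene on the opposite strand within 500 bp.

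Replicate 3 held more summits at these genes than replicate 1. Within 500 bp of a start it had a summit at 6 of the 8 genes, against 41.0% of all genes, and replicate 1 had one at 3 of 8, against 29.5%. Inside the genes or within 2 kb the counts were 6 of 8 in replicate 3 (59.5% of all genes) and 4 of 8 in replicate 1 (52.9%). HP5, Su(var)3-9 and Su(var)3-7 had a start summit in replicate 3 and none in replicate 1, 3 of 8 against 15.6% of all genes. None of the 8 had the reverse, against 4.17% of all genes. These shares include noncoding genes, while all 8 members are protein-coding. Both lists hold the same number of peaks, and their read depths are unknown.

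The difference in rank, replicate 1 minus replicate 3, was measured at the 6 member summits with a match in both. It was 16330 at HP4, 5185 at the start of HP1a, 2912 at the 3' end of HP1b and 1936 at its start, all better ranked in replicate 3. It was 0 at the summit 1896 bp upstream of HP1a and -302 at the one upstream of HP5. Over all 9153 matched IDR peaks the median was -183, with quartiles of -1349 and 339, and 99.8% of them lay at or below the value of HP4 and 97.0% at or below that of the HP1a start. All the matched member summits but the one upstream of HP5 lay within 500 bp of a start of some gene. Among all matched IDR summits within 500 bp of a start the median was 70, with quartiles of -462.25 and 1141.75. Among those away from starts it was -374, with quartiles of -1666 and 162. Of the former 55.2% were better ranked in replicate 3, against 33.6% of the latter. The percentages at or below a member's value were taken over all matched peaks only.

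**Figure D2:**
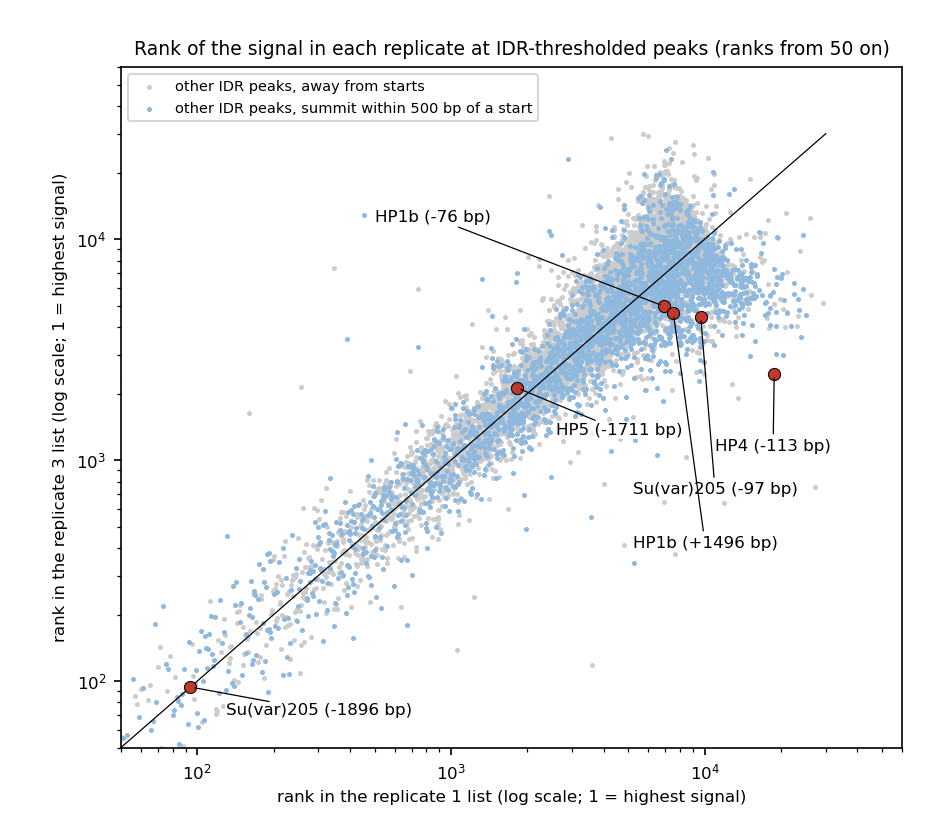
Rank of the signal in replicate 1 (x axis) and replicate 3 (y axis), both on log scales, for IDR peaks matched in both replicates with ranks from 50 on, in blue with a summit within 500 bp of a start and in grey away from starts, with the 6 member summits in red and the HP1a gene under its FlyBase symbol. HP4 lies far below the line of equal rank, at 18791 and 2461, while the summits upstream of HP5 and at 1896 bp from HP1a lie close to it. The replicate 1 summit matched at HP4 is 177 bp from the IDR summit. The summit of Su(var)3-7 has no rank in replicate 1 and is not plotted.

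The genes whose promoter peaks were ranked most like that of HP4 over the 2 replicates, by Euclidean distance in log2 rank among 2624 protein-coding genes, were Deaf1 and Fibp, which share 1 summit on 3L (ranks 19152 and 3028, distance 0.30), and CG2145 on X (ranks 23866 and 3621, distance 0.66). HP4 had both the highest promoter signal of the 8 genes and the largest rank difference among the matched member summits, which leave out Su(var)3-7. Its rank in replicate 1 is that of a summit 177 bp from the IDR summit.

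A feature of 7 of the 8 genes that the choice of members did not use was a paired start. A start of another gene on the opposite strand lay within 500 bp in all but egg, from 6 bp for HP1b to 400 bp for HP5, against 30.8% of protein-coding genes. All 4 bound promoters were among these 7, but egg was the only member without a paired start to set beside them. Over the genome, 34.8% of the 4299 protein-coding genes with such a paired start were bound and 15.6% of the 9646 without one. In the wider list of heterochromatin genes described further below the shares were alike. There 6 of 17 genes with a paired start were bound and 6 of 18 without one. In these counts 1 summit between paired starts is given to both genes.

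The bound and unbound members also differed in base composition, which was looked at after the peaks had been seen. Windows of 50 bp to each side of the promoter summits had 19.8% GC at HP4, 22.8% at HP1a, 22.8% at Su(var)3-7 and 32.7% at HP1b, against a median of 29.7% over all IDR summits. Windows centred 500 bp to either side of these 4 summits had between 47.5% and 61.4% GC. Of the 7 member summits, 6 were lower in GC than both flanks, the exception being the one at the 3' end of HP1b, and of all IDR summits 72.2% were.

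**Figure D3:**
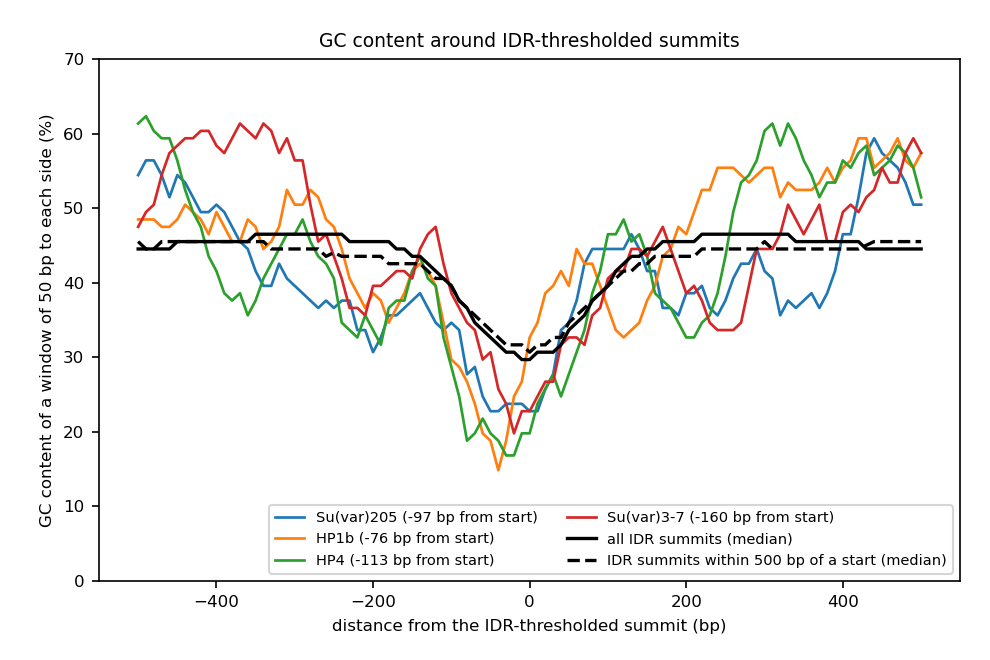
GC content in percent of a window of 50 bp to each side (y axis) by distance in bp from the IDR summit (x axis), for the 4 member promoters in colour, oriented with the gene, and as the median over all IDR summits (solid black) and over those within 500 bp of a start (dashed). All 4 curves dip at or near the summit, and the median over all summits falls to 29.7% at the summit.

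The lowest GC content of any such window within 500 bp of a start separated the members without overlap. It was 15.8% for HP1b, 16.8% for HP4, 19.8% for Su(var)3-7 and 21.8% for HP1a, all bound, and 26.7% for HP5, 31.7% for HP1c, 32.7% for egg and 35.6% for Su(var)3-9, none bound. A window fixed 100 bp upstream of the first start did overlap. There unbound HP5 had 26.7%, below bound Su(var)3-7 (32.7%) and HP1b (38.6%). The other unbound members, egg (41.6%), HP1c (48.5%) and Su(var)3-9 (50.5%), lay above every bound one. Protein-coding genes were split by the same measure into 5 bins of similar size. In the bin with the lowest values 31.7% were bound (95% exact binomial interval 30.1 to 33.3), followed by 25.7%, 21.6% and 15.3%. In the bin with the highest values 236 of 2354 were bound (interval 8.84% to 11.3%). These intervals cover counting error only, and genes that share a summit are not independent. Both the lowest GC content and the call of a summit were taken over every annotated start of a gene. A gene with more starts therefore had more chances of a low value and of a summit. Among the members only HP1b has 2 starts. How much of the trend over the bins comes from this was not tested. Whether the GC content of the DNA affected how well a site was recovered was not tested.

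**Figure D4:**
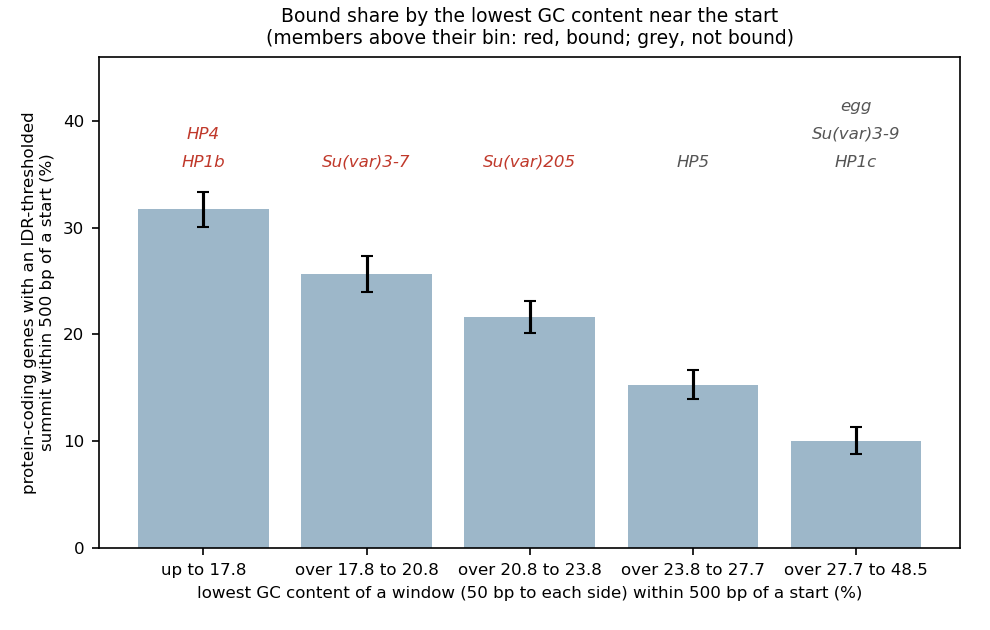
Share in percent of protein-coding genes with an IDR summit within 500 bp of a start (y axis, bars with 95% exact intervals), in 5 bins of genes by the lowest GC content of a window near the start (x axis). The share falls from 31.7% in the lowest bin to 236 of 2354 genes in the highest, and the 4 bound members (red) stand over the 3 lower bins while the 4 others (grey) stand over the 2 higher ones.

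Of 9 known promoter motifs, 5 had no match at the member summits. Within 50 bp to each side of the 7 IDR summits, on both strands, the DRE (TATCGATA), the core of the M1BP site (GGTCACAC), the E-box CACGTG, the GATA factor site GATAAG and the Zelda site CAGGTAG were the 5 absent ones. In that order, they were found in 0.445%, 0.487%, 0.445%, 5.13% and 0.311% of all IDR summits. At such shares 7 summits are too few to show a lack of them. CGATA, which TATCGATA contains, matched at 1 summit (that at the start of HP1b, which also held GAGAG, the core of the GAGA factor site), against 10.6% of all IDR summits and 20.4% of protein-coding promoters in a window of the same length centred 100 bp upstream of the start. TATAAA matched at 2 summits, those of HP4 and Su(var)3-7, against 25.5% of IDR summits and 18.2% of promoters, and CANNTG, which contains CACGTG, at 3 summits, against 31.7% and 36.7%. GAGAG was found in 9.34% of IDR summits and 13.4% of promoters. The DRE, which occurs at 2 places between the starts of Su(var)3-9 and Set, was found in 2.62% of promoters and 0.445% of IDR summits. For every motif these shares cover unlike places. The promoter windows all lay near starts, while 6711 IDR summits lay away from starts and 2946 within 500 bp of one. Motif shares were not computed for the summits near starts alone. Whether bound promoters differ from other promoters in any of these motifs was therefore not tested. The DRE also occurred at 1 place inside the whole IDR peak of HP4. That peak held 3 matches of CGATA, 2 of them overlapping within that DRE. This DRE lay outside the window around the HP4 summit and outside the stretch printed above.

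Of 35 other genes of heterochromatin, listed by role and all protein-coding, 12 had an IDR summit within 500 bp of a start. The shares given above were 18.8% of all genes and 21.5% of protein-coding genes. The median signal of the 12 was 354.0, against 453.6 over the 3422 bound genes of the genome and 364.0 over the 4 bound members. Replicate 1 had a start summit at 12 of the 35, against 29.5% of all genes, and replicate 3 at 25, against 41.0%. In the 9657 strongest peaks of replicate 3, that is without replicate 1, the count was 19, against 23.1% of all genes. In the 9657 strongest of replicate 1, without replicate 3, it was 9, against 16.5%. These replicate shares include noncoding genes and were not computed for protein-coding genes alone.

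The partners of HP1 and proteins of the chromocentre gave 7 of the 12 and are the largest role, with 12 of the 35 genes listed. The highest signals among them were at row (1751, rank 719, summit 135 bp upstream, 2R, 15213554 to 15214041) and woc (759.4, rank 2365, summit 395 bp downstream, 3R, 27263455 to 27263895). Both encode zinc finger proteins found in a complex with HP1c, whose own gene had no summit. XNP, the fly ATRX homologue, followed with 553.9, E(var)3-9 with 344.0 and ADD1 with 307.1, the last pair with a start summit in replicate 3 and none in replicate 1.

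Of the genes for H3K9 methylation and its cofactors, ova (listed as Su(var)2-1) had a summit with a signal of 364.0. The gene wde, which encodes a partner of Eggless, had one with 273.2, while G9a had none. At ova replicate 3 had a start summit and replicate 1 had none. Of the telomere cap genes, ver had the highest signal of the list (1891, rank 636, summit 193 bp upstream on 3L, 12523956 to 12524467, within 500 bp of the start of Gcn5 too), and HipHop, cav and moi had none. Of the piRNA silencing genes, cuff had one (756.8, 247 bp upstream, shared with CG13185) among 6. The 4 other HP1 family genes, rhi, HP6, HP1e and HP1D3csd, had none, and JIL-1, a histone kinase gene, was the 1 bound gene of 6 for modifiers and counteracting enzymes.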

How the data were processed

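Anti-GFP ChIP-seq peak lists from 2 biological replicates (1 and 3) of CG1663-GFP pupae were used. The deposited README texts give dm6 as the build, 1 control behind every peak list, and the IDR list as derived from the other 3. No aligner, caller, filter or threshold is given in the sources used here. The deposited signal (column 7) ranked the peaks, and the authors' −log10 q-value (column 9) was not used for any result. The summit was the peak start plus column 10. Genes came from Ensembl release 115 (BDGP6.54) without transposable elements, bases from RefSeq Release 6. All peak ends lay inside the arms of that genome. A replicate peak was matched to an IDR peak by at least 1 shared bp, taking the nearest summit.

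Members and lists were chosen with earlier results of these data known, so no test was made over them. All 8 members were named, with neighbours starting within 500 bp of a summit, up to 8 bound genes of the wider list by signal (wde, JIL-1, piwi and the unbound genes were added after their values were seen), and the 3 genes ranked most alike. All 35 genes of the wider list were found, 2 of them through synonyms or capitals. The alternatives were a stricter and a looser list, each replicate alone, other windows, any base of the peak, and other matching rules. The lists give no read totals, so depth is unknown. Base composition and peaks missing from the pooled list were examined after the data had been seen. Code was tested on simulated peaks. Python 3.11.15, pandas 2.3.3 and scipy 1.17.1 were used.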

Additional observations from a re-analysis of the deposited data

How the results depend on the processing

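The number of members with an IDR summit at a start was 4 of 8 with any base of the peak (21.0% of all genes), with windows of 200 bp (11.8%) and 1000 bp (24.1%) and in the whole pooled list (33.8%), and 2 among the stronger 50% of IDR peaks (10.9%). In 1 replicate alone it ranged from 2 (without replicate 3, 16.5% of all genes) to 6 (without replicate 1, 23.1%). Within 2 kb the count of 5 was 4 among the stronger 50% of peaks (25.0% of all genes) and with a flank of 500 bp (26.7%), 5 with any base (39.3%) and in the pooled list (54.2%), and 6 with a flank of 5 kb (54.3%), and in 1 replicate alone it ran from 3 (36.0%) to 6 (42.0%). For the 35 other genes, with the same shares of all genes at each setting, the count of 12 was 5 among the stronger 50% of peaks, 19 in the whole pooled list, from 9 to 19 in 1 replicate alone, and from 10 to 15 otherwise. The median rank difference over 6 matched member summits, 2424, was 1936 with summits within 100 bp, where HP4 lost its match, and 2912 with an overlap of 50% of both peaks, where the HP1b start summit lost its match. The 5 summits left under each rule kept their differences. With windows of 100 bp to each side, CGATA matched at 3 of 7 member summits, GAGAG at 2 and GATAAG at 1. The cause of these shifts was not tested. No paired analysis was possible because there is 1 group. With 2 replicates and unknown depth, an absent peak is a summit not called, not a site shown to be empty.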

Other observations

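The piwi promoter, which belongs to the list of 35 other heterochromatin genes, carried a strong peak in both replicates and none in the pooled or IDR list. Replicate 1 placed a summit 169 bp upstream of its start with a signal of 661.8 and rank 1480, and replicate 3 one 191 bp upstream with a signal of 386.6 and rank 1829. Of the 7490 peaks among the 9657 strongest of replicate 1 whose nearest overlapping peak of replicate 3 was among its 9657 strongest, 20 (0.267%) overlapped no pooled peak, and the piwi peak had the best rank of these. The cause was not tested. Counts from the IDR list therefore leave out piwi, which encodes the nuclear Argonaute protein of piRNA-guided silencing. The replicate 3 summit near Su(var)3-9 was likewise absent from the pooled list, as were 4.78% of the 9657 strongest peaks of replicate 3.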
